A study of Mus musculus with 6 samples.

Results

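The receptors described here are 7 genes, Ntrk2, Ntrk3, Ngfr, Ret, Gfra1, Gfra2 and Gfra3, taken by name as receptors of the neurotrophins and of the GDNF family and found through their NCBI gene identifiers among 36528 listed genes. They were measured by bulk RNA sequencing of lumbar dorsal root ganglia, the clusters of sensory neuron cell bodies beside the spinal cord, in 2 groups of adult female mice. CreER-positive mice (n = 3) were homozygous for a loxP-flanked Scn9a allele (Scn9a loxP/loxP) and carried the transgene pCAAG.Cre.ER, a Cre recombinase fused to an oestrogen receptor domain and activated by tamoxifen. CreER-negative mice (n = 3) were littermates with the same Scn9a loxP/loxP alleles and no transgene, and all mice were 12 to 18 weeks old. The label names the driver pCAAG and no cell type to which Cre was limited, and a tamoxifen treatment is not given in the sources used here. An effect of the transgene and one of the loss of Scn9a, the gene of the sodium channel Nav1.7, therefore cannot be told apart. A library holds the 6 ganglia L4 to L6 of 1 mouse, and differences between animals are thus part of the spread between replicates.

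Neurotrophins are secreted survival and growth factors that act through Trk receptor tyrosine kinases and through Ngfr, the p75 neurotrophin receptor, which binds all of them with low affinity. Ligands of the GDNF family bind a GFR alpha protein held in the membrane by a lipid anchor, and the pair then activates the receptor tyrosine kinase Ret. In adult dorsal root ganglia these receptors divide the neurons into classes: Ntrk3 is known for proprioceptors and large mechanoreceptors, Ntrk2 for mechanoreceptors of thinly myelinated fibres, Ret with Gfra2 for non-peptidergic nociceptors and C-fibre mechanoreceptors, and Gfra3 for a set of peptidergic nociceptors.

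Total counts ranged from 52309273 to 62625441 in the CreER-positive libraries and from 40237131 to 63332040 in the CreER-negative libraries, and each of the 7 receptor genes had between 1935 and 41394 counts in every library. Scn9a itself had 620, 565 and 574 CPM (the count relative to the scaled library total) in CreER-positive replicates 1 to 3, against 635, 611 and 557 CPM in CreER-negative replicates 1 to 3. Its log2 fold change was -0.04 ± 0.08 (SE; edgeR adjusted p = 0.918). These gene-level counts also hold reads from outside the loxP-flanked part, so they do not check the deletion. By cell-type markers CreER-positive 3 stood apart from the other libraries: 9 of 9 fibroblast markers, 9 of 11 macrophage markers and 10 of 12 vascular markers were highest of all 6 libraries there, and 9 of 15 pan-neuronal markers were lowest there. Over all genes CreER-positive 1 and 2 also differed from each other, with a chi-square divided by its degrees of freedom of 35.4. Their pairs with CreER-positive 3 had 42.15 and 43.9, and pairs of CreER-negative libraries had 6.02 to 9.02. CreER-negative 2 held muscle transcripts, with 7 tested muscle markers summing to 58.8 CPM there and to 6.67 to 9.78 CPM in the other 5 libraries.

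None of the 7 receptor genes passed the test between the groups. By edgeR's quasi-likelihood test, adjusted by the Benjamini-Hochberg method over all genes tested, 0 of 7 had an adjusted p under 0.05, against 0.726% of the 22043 tested genes (160 genes), with 36 genes (0.163%) higher and 124 (0.563%) lower in CreER-positive mice. DESeq2 and limma-voom also called 0 of 7, against 1.93% and 0.721% of genes. At an unadjusted p under 0.05 there was 1 receptor gene, Ngfr, against 10.6% of genes. The log2 fold changes ran from -0.18 for Gfra2 to 0.32 for Ngfr, with a median of -0.04 over the 7 genes, and the median over all tested genes was 0.00. The 95% intervals show what changes these libraries leave possible: for Gfra1 a change between -2.16% and 15.6%, for Ntrk2 between -12.8% and 8.91%, and for Ngfr, the widest, between 3.75% and 49.6%.

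**Figure D1:**
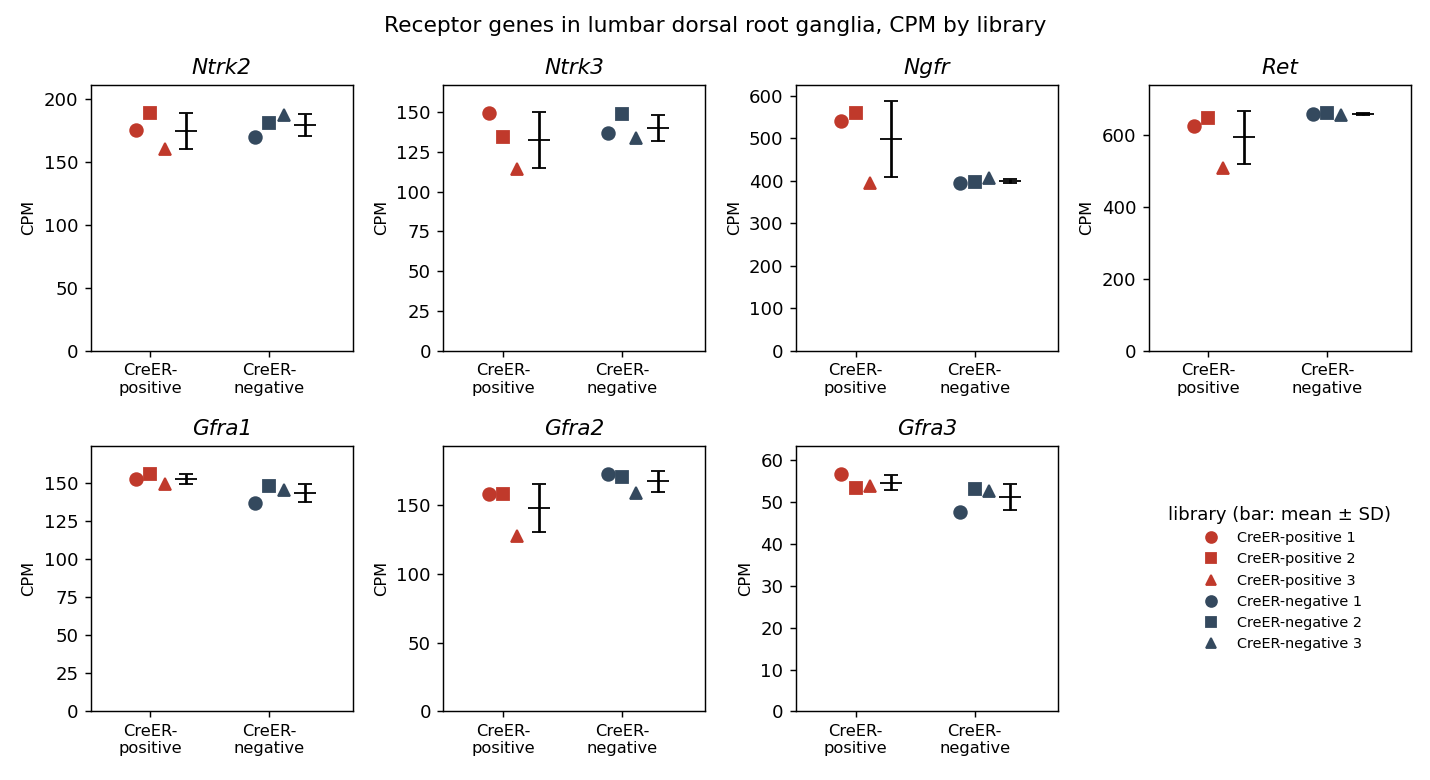
CPM of the 7 receptor genes in each library, with a panel for each gene and a vertical axis that starts at 0; points are single mice, CreER-positive on the left and CreER-negative on the right, and bars give the mean ± SD of 3 libraries. Ngfr is between 395 and 559 CPM in CreER-positive mice and between 396 and 406 CPM in CreER-negative mice, and the triangle of CreER-positive 3 is the lowest of 6 points in 5 of the 7 panels.

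Groups did not overlap in 4 of the 7 receptor genes, against 15.9% of tested genes. Gfra1 and Gfra3 were higher in every CreER-positive library (6.63% of tested genes were) and Ret and Gfra2 were lower in every CreER-positive library (9.31% of tested genes were). In these 4 genes the gaps between the groups were narrow. CreER-positive 3 held the lowest of the 6 values in 5 of the 7 genes: Ntrk2, Ntrk3, Ngfr, Ret and Gfra2. The share of all tested genes lowest there was not counted, so this is not shown to be particular to the receptor genes. Of the pan-neuronal markers 9 of 15 were lowest there too, against 0 of 9 fibroblast and 0 of 11 macrophage markers. The coefficient of variation between mice was 2.07% to 18.0% in the CreER-positive group and 0.449% to 6.04% in the CreER-negative group.

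Ngfr (NCBI gene 18053, chromosome 11, 95568818 to 95587698 on the minus strand of GRCm38.p6) had the largest estimate. It had 540, 559 and 395 CPM in CreER-positive replicates 1 to 3, against 396, 397 and 406 CPM in CreER-negative replicates 1 to 3. The first and second CreER-positive libraries were far above every CreER-negative library, and CreER-positive 3 was below all of them, so the groups overlapped. The means were 498 ± 89.5 CPM in CreER-positive mice and 399.8 ± 5.46 CPM in CreER-negative mice (SD, n = 3 each), a log2 fold change of 0.32 ± 0.12 (SE) with an edgeR adjusted p of 0.369. Without CreER-positive 3 the log2 fold change was 0.46, with an edgeR adjusted p of 0.00151, in a fit that called 2.53% of genes. Without CreER-positive 3 and CreER-negative 2 together it was 0.45, with an edgeR adjusted p of 0.0196, in a fit that called 0.487% of genes. Under the 15 other alternatives its log2 fold change lay between 0.23 and 0.33 and its edgeR, DESeq2 or limma-voom adjusted p between 0.117 and 0.753.

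Marker levels differed between the CreER-positive libraries along with Ngfr. The 15 pan-neuronal markers summed to 14746, 15611 and 12376 CPM in CreER-positive replicates 1 to 3, against 12912, 12647 and 14232 CPM in CreER-negative replicates 1 to 3. The 11 macrophage markers summed to 93.0, 89.7 and 161 CPM in CreER-positive replicates 1 to 3, against 111, 107 and 85.5 CPM in CreER-negative replicates 1 to 3. The 10 A-fibre mechanoreceptor markers summed to 1646, 1823 and 1372 CPM in CreER-positive replicates 1 to 3. For the 10 satellite glia markers the sums there were 3454, 3677 and 3992 CPM, and for the 12 Schwann cell markers 4459, 5222 and 4937 CPM. Within the CreER-positive group, the libraries with high Ngfr had high pan-neuronal and A-fibre sums and low macrophage and satellite glia sums. CreER-negative 3, with a pan-neuronal sum near theirs, had Ngfr at the level of its group. When libraries were scaled on the pan-neuronal markers in place of all genes, the log2 fold change of Ngfr was 0.27 (edgeR adjusted p = 0.269), in a fit that called 0.422% of genes. The part of these cell types in the level of Ngfr was not tested. In bulk ganglia fewer cells of a type and less RNA per cell cannot be told apart, here or for any gene below.

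Because Ngfr was the receptor gene with the largest difference, the bases just before its start are shown, as RefSeq gives them for GRCm38.p6 (chr11:95587699-95587948, minus strand, 250 bases, 5′ to 3′). Capitals mark the GC box GGGCGG, searched on both strands.
Ngfr: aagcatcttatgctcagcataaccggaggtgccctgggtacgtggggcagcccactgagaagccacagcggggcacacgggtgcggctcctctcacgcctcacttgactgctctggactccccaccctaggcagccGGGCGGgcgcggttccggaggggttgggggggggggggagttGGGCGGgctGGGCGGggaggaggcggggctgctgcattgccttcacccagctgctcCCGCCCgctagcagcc
The window held 4 GC boxes, 3 on the strand of the gene and 1 on the other, none overlapping another, and no TATAAA on either strand. GENCODE vM21, used here for exon lengths, starts Ngfr at position 95587735. By that start the end of the window, with the GC box on the other strand, lies inside the gene. GC made up 70.4% of its bases, against a median of 52.4% over 32851 promoter windows of the same length. At least 1 GC box was present in 32.7% of those windows, at least as many as at Ngfr in 4.09%, and TATAAA in 12.4%. A match of letters is a description of the sequence and shows no binding.

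The Trk receptor genes differed little between the groups. Ntrk2 (NCBI gene 18212, chromosome 13, 58806472 to 59133970, plus strand), which encodes TrkB, the receptor of brain-derived neurotrophic factor, had 176, 189 and 160.1 CPM in CreER-positive replicates 1 to 3, against 169.7, 181 and 187 CPM in CreER-negative replicates 1 to 3. The groups overlapped, and their means of 175 ± 14.3 CPM in CreER-positive mice and 179 ± 8.91 CPM in CreER-negative mice differed by less than either SD (log2 fold change -0.04 ± 0.07, edgeR adjusted p = 0.907). Ntrk3 (NCBI gene 18213, chromosome 7, 78179986 to 78581034, minus strand), which encodes TrkC, the receptor of neurotrophin-3, had 149, 134 and 114 CPM in CreER-positive replicates 1 to 3, against 137, 149 and 134 CPM in CreER-negative replicates 1 to 3. These groups overlapped too, with means of 132 ± 17.6 CPM in CreER-positive mice and 139.9 ± 7.93 CPM in CreER-negative mice (log2 fold change -0.08 ± 0.09, edgeR adjusted p = 0.832). The sign of both estimates depended on CreER-positive 3: without it the log2 fold change was 0.02 for each gene.

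The log2 ratio of Ntrk2 to Ntrk3 counts within a library, which does not depend on how libraries are scaled, was 0.24, 0.49 and 0.49 in CreER-positive replicates 1 to 3, against 0.31, 0.28 and 0.48 in CreER-negative replicates 1 to 3. The groups overlapped and the means differed by 0.05 (exact two-sided permutation p = 0.8; n = 3 each). Without 1 library the difference was 0.13 (CreER-positive 1), 0.0037 (CreER-positive 2), 0.0048 (CreER-positive 3), 0.022 (CreER-negative 1), 0.0081 (CreER-negative 2) or 0.11 (CreER-negative 3). Both Trk genes make full-length kinase receptors and truncated forms without the kinase domain, and the annotation used for exon lengths lists 10 transcripts for Ntrk2 and 20 for Ntrk3. A count per gene adds these forms together.

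Ret (NCBI gene 19713, chromosome 6, 118151748 to 118197744, minus strand), the signalling receptor shared by the GDNF family, had 625, 647 and 509.7 CPM in CreER-positive replicates 1 to 3, against 659, 660.4 and 655 CPM in CreER-negative replicates 1 to 3. Every CreER-positive library was below every CreER-negative library, by little in replicates 1 and 2 and by far more in CreER-positive 3. The means were 594 ± 73.8 CPM in CreER-positive mice and 658 ± 2.96 CPM in CreER-negative mice, a log2 fold change of -0.15 ± 0.09 with a 95% interval from -22.0% to 4.48% (edgeR adjusted p = 0.651). Without CreER-positive 3 the log2 fold change was -0.05. The coefficient of variation between the 3 CreER-negative mice was 0.449%, the smallest of any of the 7 genes in either group.

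Gfra2 (NCBI gene 14586, chromosome 14, 70890107 to 70979840, plus strand) encodes the co-receptor of neurturin. It had 158.3, 157.6 and 128 CPM in CreER-positive replicates 1 to 3, against 172, 170.3 and 158.7 CPM in CreER-negative replicates 1 to 3. The groups did not overlap, though CreER-positive 1 and CreER-negative 3 were nearly equal. The means were 148 ± 17.5 CPM in CreER-positive mice and 167 ± 7.38 CPM in CreER-negative mice (log2 fold change -0.18 ± 0.08, edgeR adjusted p = 0.523). Without CreER-positive 3 the log2 fold change was -0.08. The predicted gene Gm34588 lies within the span of Gfra2 and had 721 to 1154 counts per library, and since the strand setting is unknown its reads and those of Gfra2 may be mixed. The other predicted genes with counts inside a receptor gene, Gm10007 in Gfra1 and Gm53063 in Ntrk2, had 144 to 247 and 1 to 9 counts per library.

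Gfra1 (NCBI gene 14585, chromosome 19, 58235581 to 58455946, minus strand), the co-receptor of GDNF, and Gfra3 (NCBI gene 14587, chromosome 18, 34689898 to 34720387, minus strand), the co-receptor of artemin, had estimates in the other direction. Gfra1 had 153, 156 and 149.8 CPM in CreER-positive replicates 1 to 3, against 137, 148 and 146 CPM in CreER-negative replicates 1 to 3. Gfra3 had 56.7, 53.5 and 53.8 CPM in CreER-positive replicates 1 to 3, against 47.6, 53.2 and 52.6 CPM in CreER-negative replicates 1 to 3. In both genes the lowest CreER-positive library was just above the highest CreER-negative library, and CreER-negative 1 was the lowest of all. The log2 fold change was 0.09 ± 0.05 for Gfra1 and 0.10 ± 0.06 for Gfra3, with edgeR adjusted p values of 0.634 and 0.645. In these genes CreER-positive 3 was not the lowest library, and the log2 fold changes without any single library lay between 0.06 and 0.11 for Gfra1 and between 0.05 and 0.13 for Gfra3.

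**Figure D2:**
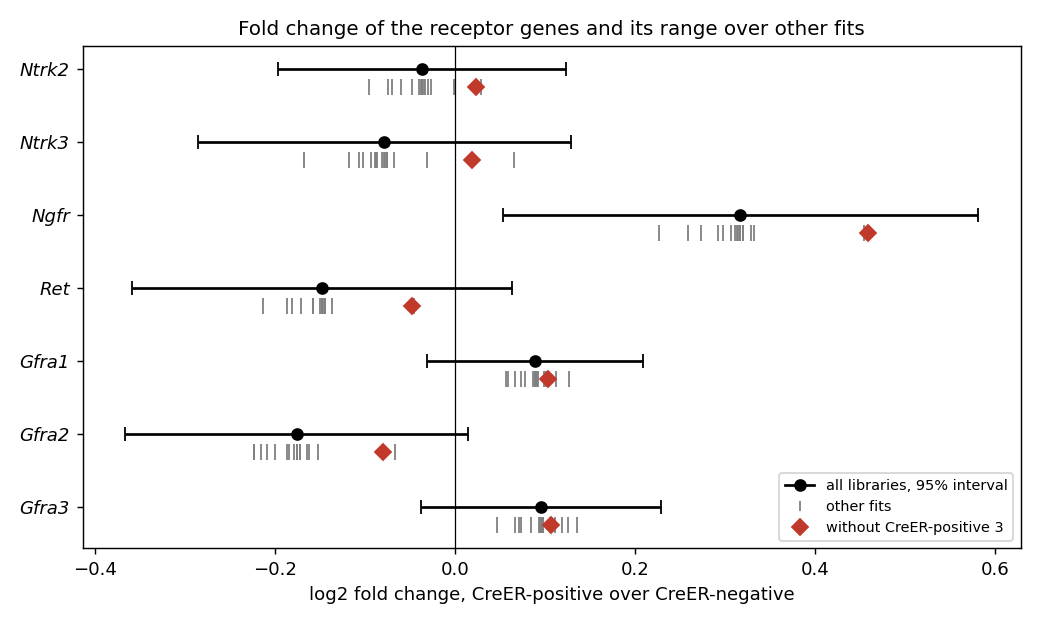
Log2 fold change of each receptor gene, CreER-positive over CreER-negative; the black point and bar give the estimate from all 6 libraries with its 95% interval, grey ticks the estimates of the other fits, and the red diamond the estimate without CreER-positive 3. The interval of Ngfr alone lies above 0, and without CreER-positive 3 Ngfr moves to 0.46 while Ret and Gfra2 move to -0.05 and -0.08.

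Each GFR alpha gene's share of the summed Gfra1, Gfra2 and Gfra3 counts of a library was compared between the groups. These shares are of counts that are not divided by length, so they serve to compare mice and not the 3 genes with each other. Gfra2 made up 43.0%, 42.9% and 38.5% in CreER-positive replicates 1 to 3, against 48.3%, 45.8% and 44.4% in CreER-negative replicates 1 to 3. Gfra1 made up 41.5%, 42.5% and 45.2% in CreER-positive replicates 1 to 3, against 38.4%, 39.9% and 40.8% in CreER-negative replicates 1 to 3. The groups did not overlap in either share, and CreER-positive 3 was the farthest from the CreER-negative libraries in both. The mean share of Gfra2 was 41.5% ± 2.57 in CreER-positive mice and 46.2% ± 1.94 in CreER-negative mice (SD, n = 3 each), a difference of -4.65 percentage points with an exact two-sided permutation p of 0.1, the smallest that 3 against 3 allow. The mean share of Gfra1 was 43.1% ± 1.90 in CreER-positive mice and 39.7% ± 1.22 in CreER-negative mice, a difference of 3.37 points with the same exact permutation p. Gfra3 made up 15.4% ± 0.845 in CreER-positive mice and 14.1% ± 0.723 in CreER-negative mice, and its groups overlapped (difference 1.28 points, exact permutation p = 0.2). With counts divided by the deposited width the sizes changed: Gfra3 then made up 43.5% ± 2.06 in CreER-positive mice and 40.1% ± 1.79 in CreER-negative mice, a difference of 3.42 points without overlap, though CreER-positive 2 (41.61%) and CreER-negative 3 (41.58%) were nearly equal (exact permutation p = 0.1). By width Gfra1 made up 16.8% ± 0.755 in CreER-positive mice and 15.6% ± 0.375 in CreER-negative mice, a difference of 1.25 points, and the difference for Gfra2 was -4.67 points, both with an exact permutation p of 0.1. Over the 4 ratios of counts tested, the Benjamini-Hochberg adjusted exact permutation p was 0.2 for Gfra1 and Gfra2, 0.267 for Gfra3 and 0.8 for the Ntrk2 to Ntrk3 ratio, so none could pass.

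**Figure D3:**
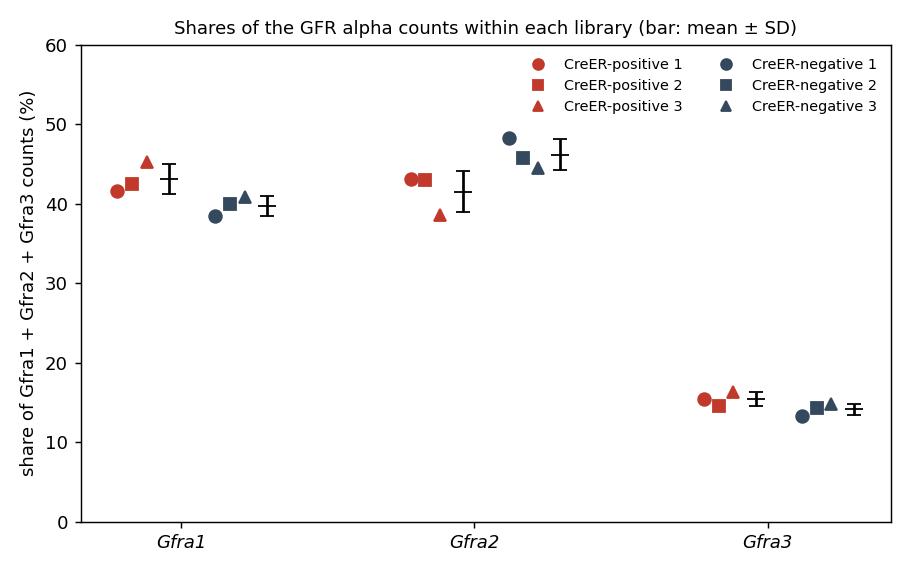
Share of each GFR alpha gene in the summed counts of Gfra1, Gfra2 and Gfra3 of a library, in percent and not divided by length; points are single mice, CreER-positive left of CreER-negative for each gene, and bars give the mean ± SD of 3 libraries. Gfra2 is at 38.5% to 43.0% in CreER-positive mice and at 44.4% to 48.3% in CreER-negative mice, while Gfra1 is at 41.5% to 45.2% in CreER-positive mice and at 38.4% to 40.8% in CreER-negative mice.

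Levels of the receptor genes were set against each other per length. In CPM per kilobase of the deposited gene width, Ngfr was highest, with means of 26.4 ± 4.74 in CreER-positive mice and 21.2 ± 0.289 in CreER-negative mice, followed by Ret with 12.9 ± 1.605 in CreER-positive mice and 14.3 ± 0.0643 in CreER-negative mice. Gfra2 had 1.64 ± 0.194 in CreER-positive mice and 1.86 ± 0.0820 in CreER-negative mice, and Gfra3 had 1.79 ± 0.0576 in CreER-positive mice and 1.68 ± 0.101 in CreER-negative mice. The values of these co-receptor genes overlapped over the 6 libraries, so their order is not set. Gfra1 (0.694 ± 0.0143 in CreER-positive mice, 0.652 ± 0.0266 in CreER-negative mice), Ntrk2 (0.534 ± 0.0438 in CreER-positive mice, 0.548 ± 0.0272 in CreER-negative mice) and Ntrk3 (0.333 ± 0.0442 in CreER-positive mice, 0.352 ± 0.0199 in CreER-negative mice) came last, and each was apart from its neighbours in all 6 libraries. The deposited widths span introns, which are long in Ntrk2, Ntrk3 and Gfra1. By merged exon length the order was Ngfr, Ret, Gfra2, Gfra1, Gfra3, Ntrk2 and Ntrk3, and Gfra1 and Gfra3 then overlapped.

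The genes with the most similar course over the 6 libraries were found for each receptor gene, as the smallest root mean square difference of log2 CPM after each gene was centred on its own mean, among 10713 genes that averaged 10 CPM or more. For Ngfr these were Rims3, a gene of presynaptic active zones, and Ywhag, a gene of a phosphoserine-binding adaptor, at 0.05 and 0.06. Ywhag had 1491, 1643 and 1150.0 CPM in CreER-positive replicates 1 to 3, against 1126, 1164 and 1273 CPM in CreER-negative replicates 1 to 3. For Ret they were Caskin1, a synaptic scaffold gene, and Nptxr, the neuronal pentraxin receptor gene, at 0.01 and 0.02. For Ntrk3 the closest was Whrn, the gene of the scaffold protein whirlin, at 0.02, with 24.6, 22.5 and 19.1 CPM in CreER-positive replicates 1 to 3, against 22.7, 24.4 and 23.0 CPM in CreER-negative replicates 1 to 3. The next was the DNA ligase gene Lig1, at 0.04. The closest to the others were Fam81a and the spectrin gene Sptbn1 for Ntrk2, Mcl1, an inhibitor of apoptosis, and Ttll12 for Gfra1, Slc9a7, a sodium-proton exchanger gene, and Prkaa2, an AMP-activated kinase subunit gene, for Gfra2, and Tyw1 and Yars2, genes of tRNA modification and charging, for Gfra3. Among the 7 receptor genes themselves the closest pairs were Gfra1 with Gfra3 and Ret with Gfra2, both at 0.04, and the most distant was Ngfr with Gfra2, at 0.25. These are descriptions over 6 libraries, and all genes of a library share its depth and its mix of cells.

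None of the ligand genes passed the test over all genes. Of the 4 neurotrophin genes, 3 were tested and 0 were called, and Ntf5 had at most 3 counts in a library. Bdnf, the gene of brain-derived neurotrophic factor, the ligand of TrkB, had 40.8, 50.4 and 48.9 CPM in CreER-positive replicates 1 to 3, against 36.1, 28.1 and 33.1 CPM in CreER-negative replicates 1 to 3. Every CreER-positive library was above every CreER-negative library. The log2 fold change was 0.53 ± 0.10 with an edgeR adjusted p of 0.0659. DESeq2 called Bdnf (adjusted p = 0.000172), and so did edgeR without CreER-positive 1 (adjusted p = 0.0326), in fits that called 1.93% and 0.626% of genes. With pan-neuronal scaling the edgeR adjusted p was 0.264. Ntf3, the neurotrophin-3 gene, had at most 1.24 CPM in any library (log2 fold change 0.55 ± 0.39, edgeR adjusted p = 0.701).

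The GDNF family ligands are known mainly from targets and supporting cells of sensory neurons, and their transcripts were scarce in the ganglia. The 5 listed genes included Gdf15, with 2 to 10 counts per library and not tested. The 4 tested genes, with 0 called, summed to 1.59 to 1.88 CPM in CreER-positive mice and to 1.72 to 1.87 CPM in CreER-negative mice, and the ranges overlapped. Gdnf had 0.602 ± 0.119 CPM in CreER-positive mice and 0.682 ± 0.0594 CPM in CreER-negative mice (log2 fold change -0.18 ± 0.21). Artn, the artemin gene, had 0.184 ± 0.0300 CPM in CreER-positive mice and 0.147 ± 0.0233 CPM in CreER-negative mice (log2 fold change 0.34 ± 0.32).

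Other receptors and co-receptors, a list of 20 genes that includes the sortilin family, Ncam1 and partners of Ngfr, had 0 of 20 called and a median log2 fold change of 0.04. Gfra4, the co-receptor gene of persephin, had 15.4, 14.9 and 12.8 CPM in CreER-positive replicates 1 to 3, against 10.6, 11.9 and 12.7 CPM in CreER-negative replicates 1 to 3 (log2 fold change 0.29 ± 0.10, edgeR adjusted p = 0.300). The groups did not overlap, and CreER-positive 3 was the closest to the CreER-negative libraries. Maged1, which encodes an adaptor that binds the p75 receptor, had a log2 fold change of 0.20 ± 0.08 (edgeR adjusted p = 0.421). Without CreER-positive 3 both Maged1 (edgeR adjusted p = 0.0322) and Ndn, the necdin gene of the same family (edgeR adjusted p = 0.0371), were called higher, in the fit in which Ngfr was also called. That fit called 2.53% of all tested genes.

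Of the 34 genes of adaptors and enzymes below Trk and Ret, 0 were called, and the median log2 fold change was 0.03. The closest to the threshold was Cblb, a gene of a ubiquitin ligase of the Cbl family that marks activated receptor kinases for breakdown. It had 63.7, 61.8 and 63.9 CPM in CreER-positive replicates 1 to 3, against 52.4, 53.8 and 49.7 CPM in CreER-negative replicates 1 to 3. The groups did not overlap, and the log2 fold change was 0.28 ± 0.05 with an edgeR adjusted p of 0.0508. DESeq2 gave an adjusted p of 0.00212 for Cblb and edgeR with pan-neuronal scaling one of 0.611. Dok1, a docking protein gene, had a log2 fold change of 0.35 ± 0.10 (edgeR adjusted p = 0.214). Without CreER-positive 3, edgeR called 4 of the 34: Cblb (adjusted p = 0.0311), Dok1 (0.0363), Irs2 (0.0308) and Gab2 (0.0408). That fit called 2.53% of all tested genes.

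Among 16 genes known as feedback inhibitors of ERK signalling or as growth factor response genes, 1 was called, and it was lower. Over all tested genes 0.563% were called lower. Dusp5, which encodes a nuclear phosphatase that inactivates ERK, had 10.7, 10.4 and 10.04 CPM in CreER-positive replicates 1 to 3, against 16.1, 17.3 and 17.4 CPM in CreER-negative replicates 1 to 3. The groups were far apart and each was narrow. Dusp5 fell by 0.71 ± 0.07 on the log2 scale (edgeR adjusted p = 0.00224), and it was called whichever of the 6 libraries was left out, with edgeR adjusted p values from 0.00219 to 0.0233. The list as a whole did not follow it: 12 of 16 estimates were positive and the median log2 fold change was 0.07. Vgf, a neuropeptide precursor gene that responds to neurotrophins in cultured neurons, had 55.5, 73.1 and 79.3 CPM in CreER-positive replicates 1 to 3, against 50.3, 45.8 and 49.1 CPM in CreER-negative replicates 1 to 3. These groups did not overlap, and the log2 fold change was 0.52 ± 0.11 with an edgeR adjusted p of 0.0983. DESeq2 called Vgf (adjusted p = 0.000635), as did edgeR without CreER-positive 1 (adjusted p = 0.00509).

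Of 12 transcription factors known to set up neuron classes that these receptors mark, 1 was called, and it was lower, against 0.563% of all tested genes. Runx1, which in mice is needed for the development of non-peptidergic nociceptors and for their expression of Ret, had 106, 94.5 and 88.1 CPM in CreER-positive replicates 1 to 3, against 136, 125 and 126 CPM in CreER-negative replicates 1 to 3. The groups did not overlap, and Runx1 fell by 0.43 ± 0.07 on the log2 scale (edgeR adjusted p = 0.0358). The call was lost without CreER-positive 2 (edgeR adjusted p = 0.1003), CreER-negative 1 (0.197), CreER-negative 2 (0.140) and CreER-negative 3 (0.134), and without CreER-negative 2 and CreER-positive 3 together (0.0758). Isl1, a homeobox gene of sensory neurons, had a log2 fold change of -0.12 ± 0.05 (edgeR adjusted p = 0.466), and the median over the list was -0.03.

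**Figure D4:**
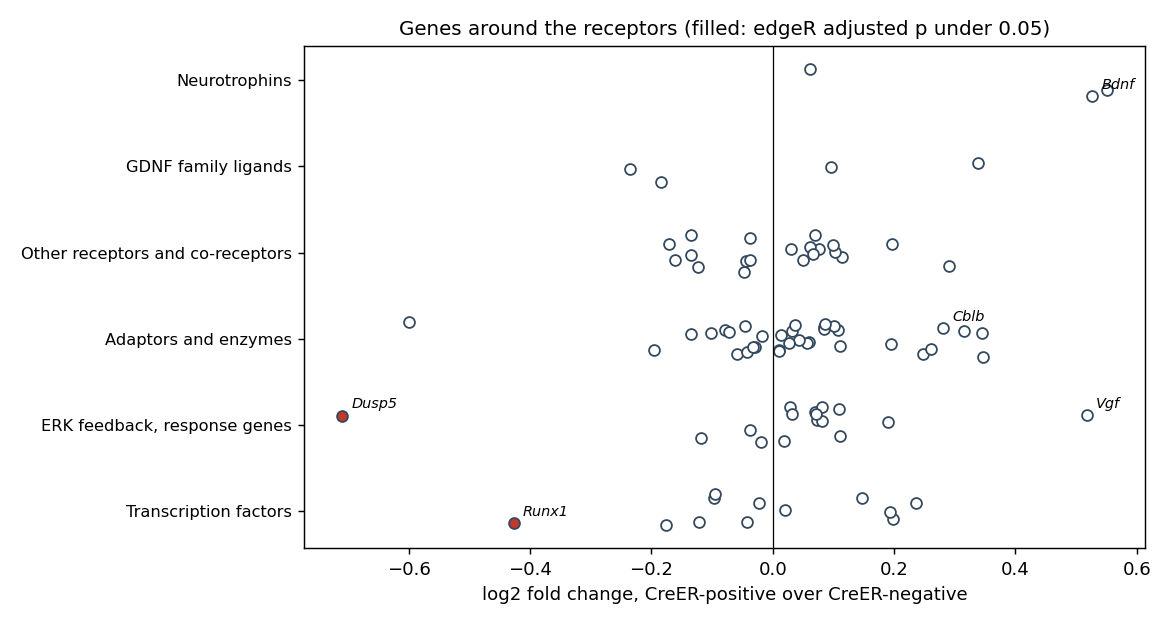
Log2 fold change, CreER-positive over CreER-negative, of the tested genes in 6 lists around the receptors; a point is a gene, spread vertically only for legibility, and filled points have an edgeR adjusted p under 0.05. The filled points are Dusp5 at -0.71 and Runx1 at -0.43; Bdnf at 0.53, Vgf at 0.52 and Cblb at 0.28 are named and open.

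Markers of the neuron classes that carry the receptors were set beside them, in lists chosen with earlier results of these data known. The 10 non-peptidergic nociceptor markers, a class known for Ret and Gfra2, summed to 1897 to 2053 CPM in CreER-positive mice and to 2315 to 2387 CPM in CreER-negative mice. Of these genes 3 were called lower, among them Mrgprd, which encodes a receptor of these neurons (log2 fold change -1.22 ± 0.07, edgeR adjusted p = 0.000249), and Prkcq, which encodes a protein kinase C (-0.68 ± 0.05, edgeR adjusted p = 0.000653). Of the 10 estimates 1 was positive (0.08), and 0.563% of all tested genes were called lower. The 6 markers of C-fibre low-threshold mechanoreceptors, which also carry Ret and Gfra2, summed to 205 to 242 CPM in CreER-positive mice and to 306 to 313 CPM in CreER-negative mice. Of these 4 were called lower, led by the vesicular glutamate transporter gene Slc17a8 (-1.38 ± 0.15, edgeR adjusted p = 0.00337) and the transcription factor gene Pou4f2 (-0.75 ± 0.09, edgeR adjusted p = 0.00494). Of the 6 markers 1 went the other way, with an estimate of 0.35. It was not called, though all 6 markers had an unadjusted p under 0.05 by edgeR's test. Mrgprd, Prkcq, Slc17a8 and Pou4f2 were called whichever of the 6 libraries was left out. The third non-peptidergic call, Plxnc1 (-0.43 ± 0.08), held when CreER-positive 3 was left out and was lost without any other library (edgeR adjusted p from 0.0511 to 0.235) and with DESeq2 size factors (0.0508). The other C-fibre calls were Th (-0.53 ± 0.08), lost without CreER-positive 2, CreER-negative 2 or CreER-negative 3, and Tafa4 (-0.50 ± 0.08), lost without CreER-positive 2 or any CreER-negative library, with edgeR adjusted p values of at most 0.121 and 0.132. Without CreER-negative 2 and CreER-positive 3 together Plxnc1 (edgeR adjusted p = 0.0607), Th (0.0574) and Tafa4 (0.0535) were not called. The sums of both marker lists did not overlap between the groups, and in both, as in Ret and Gfra2, CreER-positive 3 was the lowest library. Ret and Gfra2 were called in no fit, and the part of these neuron classes in their levels was not tested.

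The classes known for the other receptors had few called markers. Over all tested genes 0.726% were called. Of 10 peptidergic nociceptor markers, which accompany Gfra3, 0 were called, and their sums were 2604 to 2838 CPM in CreER-positive mice and 2218 to 2558 CPM in CreER-negative mice, without overlap. The 10 estimates ran from -0.15 to 0.39, with a median log2 fold change of 0.08, and only 6 were positive. Tac1, the substance P precursor gene, had 405, 377 and 434 CPM in CreER-positive replicates 1 to 3, against 328, 285 and 314 CPM in CreER-negative replicates 1 to 3 (log2 fold change 0.39 ± 0.08, edgeR adjusted p = 0.0651). DESeq2 called Tac1 (adjusted p = 4.74e-05), as did edgeR without a count filter (adjusted p = 0.0418) and without CreER-positive 3 (adjusted p = 0.0311). Trpv1, the capsaicin receptor gene, had a log2 fold change of 0.15 ± 0.06 (edgeR adjusted p = 0.414). Of 10 markers of A-fibre low-threshold mechanoreceptors, which accompany Ntrk2 and Ntrk3, 1 was called, Tafa3 (0.34 ± 0.06, edgeR adjusted p = 0.0342), which held when CreER-positive 3 was left out and was lost without any other library (edgeR adjusted p from 0.0645 to 0.216), without CreER-negative 2 and CreER-positive 3 together (0.0964) and with pan-neuronal scaling (0.358). Their sums were 1646, 1823 and 1372 CPM in CreER-positive replicates 1 to 3, against 1256, 1344 and 1539 CPM in CreER-negative replicates 1 to 3, and overlapped. Cadps2, a gene of vesicle release, had the next smallest p of that list, with a log2 fold change of -0.23 ± 0.07 (edgeR adjusted p = 0.250). Of 8 proprioceptor markers 0 were called, with sums of 320.1 to 333 CPM in CreER-positive mice and 295 to 326 CPM in CreER-negative mice. The closest of these to the threshold were Chad, a matrix protein gene (log2 fold change -0.54 ± 0.22), and Spp1, the osteopontin gene (0.17 ± 0.07), with edgeR adjusted p values of 0.422 and 0.471. Satellite glia and Schwann cells, the glia of the ganglion, had 0 of 10 and 0 of 12 markers called, and fibroblasts and macrophages 0 of 9 and 0 of 11. Of 12 vascular markers 11 had positive estimates, and the median log2 fold change over the list was 0.15. The only call was the other marker, the pericyte gene Rgs5, which was lower (log2 fold change -0.41 ± 0.07, edgeR adjusted p = 0.0293). That call held when CreER-positive 3 was left out and was lost without any other library (edgeR adjusted p from 0.0539 to 0.171), without CreER-negative 2 and CreER-positive 3 together (0.0920) and with pan-neuronal scaling (0.0847). The vascular markers summed to 275 to 339 CPM in CreER-positive mice and to 313 to 324 CPM in CreER-negative mice, and no marker of any list was at 0 in all libraries.

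**Figure D5:**
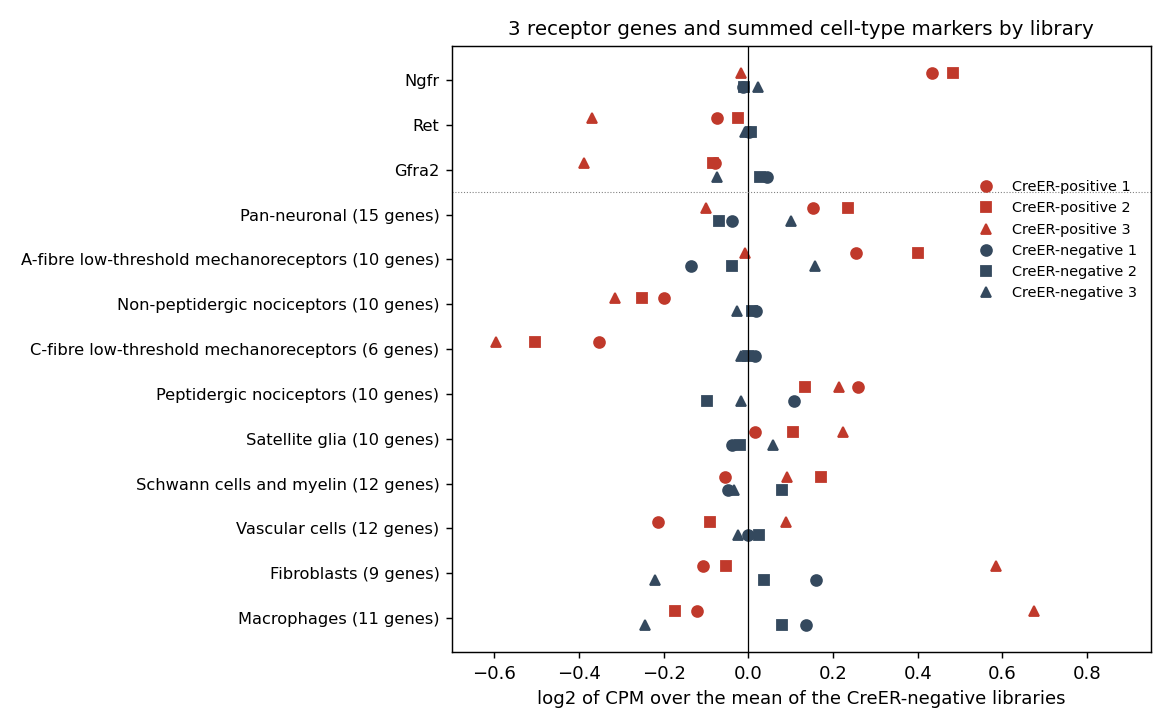
Ngfr, Ret and Gfra2 and the summed CPM of marker lists in each library, as log2 of the value over the mean of the CreER-negative libraries; each row holds the 3 CreER-positive mice above the 3 CreER-negative mice, and the number of genes in a list stands in brackets. CreER-positive 3 is at -0.02 for Ngfr, at -0.37 for Ret, at -0.39 for Gfra2 and at 0.67 for macrophage markers.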

How the data were processed

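Per the file headers, the authors deposited for each library an NCBI gene identifier with its raw count, its width and its RPKM. Reads were aligned with GSNAP to GRCm38 (mm10), per the submitters' processing notes. How reads were counted, against which annotation and with which strand option is not given in the sources used here. For 77.7% of genes the deposited width, in bases, is within 5% of their whole extent in GRCm38.p6, so intronic reads appear to be counted. The deposited RPKM values were not tested. Of the 36528 identifiers, 31049 matched a symbol, and the other 5479 held 1.91% of counts.

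The deposited raw counts were filtered with filterByExpr (22043 genes left), scaled by TMM and tested with edgeR 4.0.16 (glmQLFit with the non-legacy setting, glmQLFTest; R 4.3.3) for the group, with Benjamini-Hochberg adjustment over all tested genes at 0.05. CPM are TMM-scaled. The SE is the size of the log2 fold change over the root of F. Ratios within a library were compared by exact permutation. Alternatives used other scaling, filters or tests (DESeq2 1.42.0, limma 3.58.1) or fewer libraries. The edgeR step was tested on simulated counts with planted changes larger than any estimated for the receptor genes. That test therefore does not show how often changes of their size would be called. No 2 libraries of a group agreed within sampling noise. Chi-square divided by its degrees of freedom was 6.02 to 9.02 between CreER-negative libraries and 35.4 to 43.9 between CreER-positive libraries. Replicate numbers follow accession order, and no batch is labelled.

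The receptor genes, pathway lists and marker lists were chosen with earlier results of these data known. Named in each pathway and neuron-class list were every called gene and the 2 smallest p values, and for each receptor gene the 2 closest genes without a predicted-gene symbol; Rgs5, Ndn, Irs2 and Gab2 were added after their values were seen. Exon lengths and transcript numbers are from GENCODE vM21, and promoter windows from RefSeq. Promoter windows were used for 3 of the 7 receptor genes, and protein sequences were not used here. Any receptor gene window on chromosome 18, where Gfra3 lies, was left out. Figures were drawn with matplotlib 3.10.9.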

Additional observations from a re-analysis of the deposited data

How the results depend on the processing

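Of 119 log2 fold changes of the 7 receptor genes under 17 alternatives each, 113 kept their direction and their side of the threshold, 2 passed it and 4 changed sign. Ngfr gave 0.45 without CreER-negative 2 and CreER-positive 3 together and 0.23 to 0.46 with single libraries left out, so 1 receptor gene was called there and 0 to 1 over the single libraries. Ntrk2 gave 0.029 without both libraries and -0.096 to 0.023 over the single libraries, Ntrk3 0.066 and -0.17 to 0.019; the positive single-library values were those without CreER-positive 3. The log2 ratio of Ntrk2 to Ntrk3 differed by -0.034 without both and by 0.0037 to 0.13 over the single libraries. Dividing counts by width gave share differences of 1.25 points for Gfra1, -4.67 for Gfra2 and 3.42 for Gfra3. Ret, Gfra1, Gfra2 and Gfra3 kept their direction in every setting run. By merged exon length, 5 of 7 ranks of the levels were kept.

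Over all genes, 160 calls (36 higher, 124 lower) became 93 with pan-neuronal scaling (11 higher, 82 lower), 425 with DESeq2 (156 higher, 269 lower) and 60 to 568 with single libraries left out: 568 without CreER-positive 3, and 71, 60 and 73 without CreER-negative 1, 2 and 3. Neurotrophin calls were 1 with DESeq2 and 0 to 1 over the single libraries, and calls among other receptors 0 to 2. Adaptor calls were 1 with DESeq2 size factors, a filter of 1 CPM in 3 libraries, DESeq2, and the robust and legacy edgeR settings, and 0 to 4 over the single libraries. ERK feedback calls were 2 with DESeq2 and 1 to 2, and transcription factor calls 0 without both libraries and 0 to 1. The cause of these shifts was not tested.

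No paired analysis was possible because the replicate numbers follow accession order and the labels pair no animals. With 3 mice a group, exact permutation cannot give a p below 0.1. Gene-level counts do not separate isoforms, introns from exons, or strands.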
